A study of Mus musculus with 22 samples.

Results

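Medullary thymic epithelial cells (MECs) of wild-type mice treated with a topoisomerase I drug were compared with MECs of wild-type mice treated with a topoisomerase II drug. The comparison rests on 6 of the 22 arrays of the series, the 3 titled WT Topo and the 3 titled WT Etopo, and it covers all 19752 genes that have a probe with a single symbol. Arrays whose title names both drugs were left out of the comparison, although 2 of the 3 such WT arrays carry the treatment label Etopo. Groups follow the titles, and these arrays (3 WT and 2 Aire KO, all labelled 4 weeks) enter only the estimate of spread. Topo and Etopo are common short forms of topotecan and etoposide, which the labels do not spell out. Doses and treatment times were not given in the sources used here.

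All 6 arrays carry the genotype Aire+/+ and the strain C57Bl/6. The mice were 6 weeks old, except for WT Etopo 3, which was labelled 4 weeks. Live MECs were sorted from the treated mice as CD45- cells low for Ly51 and high for MHCII, RNA was extracted with Trizol and amplified with the Ambion WT Expression Kit, and Affymetrix ST1.0 arrays were hybridised. Beside these groups stand 3 arrays of Aire+/+ mice given DMSO (WT DMSO, 1 of them from a mouse of 4 weeks) and arrays of Aire-/- mice of 6 weeks (KO), with 3 for DMSO, 2 for Etopo and 3 for Topo. Whether mice were pooled for an array is not stated, and the p-values below therefore refer only to the variation among the arrays, some of which could be technical.

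Topoisomerase I relieves DNA supercoiling by cutting 1 strand, and topotecan holds the enzyme on the cut DNA. Type II topoisomerases cut both strands and pass a second duplex through the break, and etoposide holds them on that break. In MECs the transcriptional regulator Aire switches on a large set of genes that otherwise belong to peripheral tissues, which exposes developing T cells to those antigens. Aire has been reported to work with topoisomerases and with proteins that handle DNA breaks, which gives the choice between drugs against each enzyme class its interest.

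The arrays fitted their label as epithelium. Epcam, an epithelial surface protein, read 10.65 to 10.92 (log2 intensity) on the 6 arrays, and Ptprc, which encodes CD45, read 7.27 to 7.45. The thymocyte list mean was 7.21 to 7.32. Thymocyte RNA stood out on WT DMSO 1, with a list mean of 8.29, and on KO DMSO 1, with 8.76, so the list of Aire-induced genes used below was also defined without those and 2 further arrays. Replicate 2 of each drug is labelled male and the other 4 arrays female. Xist, the RNA that silences an X chromosome in females, read 11.92 in WT Etopo 2 and 12.10 in WT Topo 2, within its range of 11.92 to 12.33 on the 4 arrays labelled female. Eif2s3y, on the Y chromosome, read 3.91 and 3.77 in those arrays and 3.77 to 3.93 in the others, so these genes go against the label male. Pairs of arrays of the same drug correlated at 0.990 to 0.995 across genes, and pairs of different drugs at 0.984 to 0.994. Median intensity was 253.77 to 257.88. The number of arrays limits the precision.

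The drugs left very similar expression profiles, and 1 gene differed at an adjusted p under 0.05, which is 0.00506% of the genes tested. That gene, Ppp1r17, encodes a regulator of protein phosphatases that is best known from Purkinje cells of the cerebellum, and here it belongs to the genes that depend on Aire. Its log2 intensity was 7.71, 7.49 and 7.02 on the WT Etopo arrays and 6.19, 6.49 and 6.22 on the WT Topo arrays. All 3 Topo values lay below all 3 Etopo values. Ppp1r17 fell by 1.11 on the log2 scale (standard error 0.17, 95% interval -1.47 to -0.75), more than 2-fold, at an adjusted p of 0.0439 by limma with Benjamini-Hochberg adjustment over all genes.

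Ppp1r17 stood between both treatments under DMSO, where it read 7.06, 6.98 and 7.07. Its difference from DMSO, which shares those control arrays, was -0.74 with Topo (adjusted p = 0.0244, in a comparison that called 1.38% of genes lower) and 0.37 with Etopo (adjusted p = 0.891). Both values reuse the Topo or Etopo arrays that singled out the gene, so they are not separate support. On KO arrays Ppp1r17 was low under every treatment, with group means of 5.63 for DMSO, 5.67 for Etopo and 5.72 for Topo. The Topo minus Etopo difference in KO was 0.054 (SE 0.19), or -0.16 without KO Topo 1, and the test of the difference between the genotypes gave 1.16 (SE 0.26) at an adjusted p of 0.988. The call rested on each array except one: leaving out WT Topo 1, 2 or 3 gave adjusted p = 0.601, 0.0828 and 0.536, and leaving out WT Etopo 1 or 2 gave 0.82 and 0.546. Without WT Etopo 3, the array of the younger mouse, adjusted p was 0.0056, and a second gene, Gm5886, was called, named here after its value was seen, at -0.93 (adjusted p = 0.0127). The call of Ppp1r17 was also lost without the arrays of both drugs together (adjusted p = 0.15) and with a fit of the 6 arrays alone (0.0555).

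**Figure D1:**
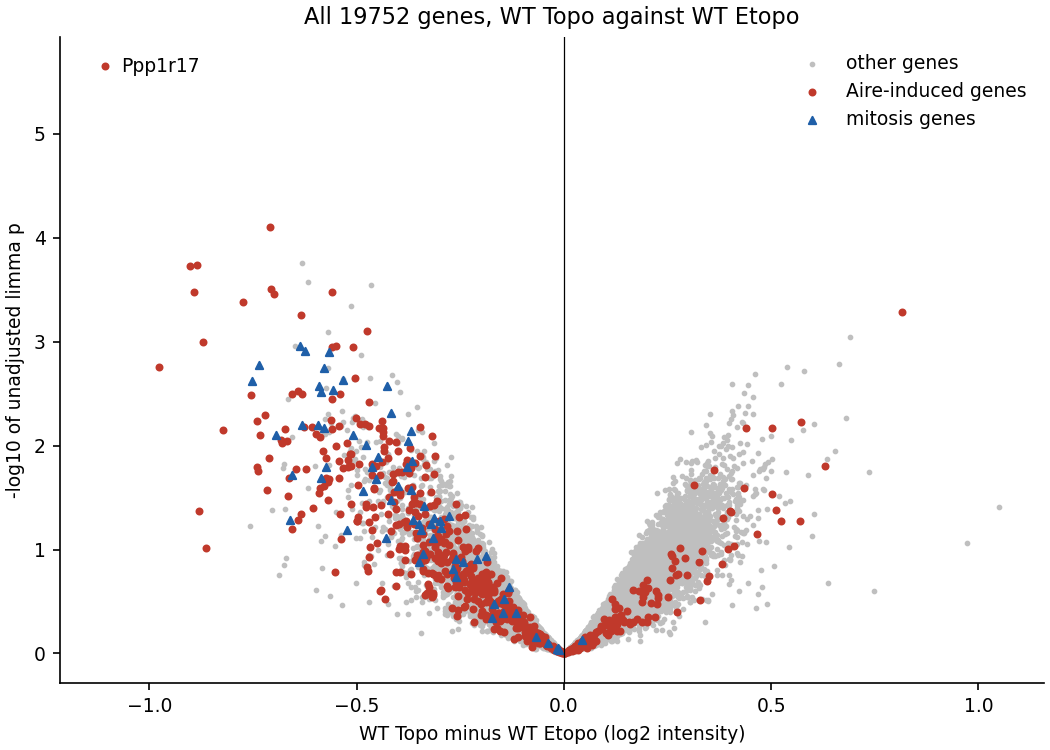
The difference WT Topo minus WT Etopo (x axis, log2 intensity) of each of 19752 genes is plotted against the size of its unadjusted limma p (y axis, minus log10). Ppp1r17 stands alone at the upper left, and Aire-induced genes (red) and mitosis genes (blue triangles) gather on the side below 0.

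The next gene by adjusted p stood at 0.629, and no gene was higher with Topo at an adjusted p under 0.05. At an unadjusted p under 0.05 there were 878 genes (4.45%), of which 428 (2.17%) were higher and 450 (2.28%) lower with Topo. The 3 Topo arrays lay entirely above the 3 Etopo arrays for 2336 genes (11.8%) and entirely below for 1055 genes (5.34%). The median standard error was 0.15, and for 99.1% of genes the 95% interval of the difference lay within 2-fold in both directions. Besides Ppp1r17, 1 gene differed by more than 2-fold between the group means: Scarna13, a small Cajal body RNA named after its value was seen, at 1.05 (adjusted p = 0.998), with overlapping groups. The median over all genes was 0.033.

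The same contrast in KO mice, on 5 arrays that share none with the WT contrast, called 0 genes by limma (571, or 2.89%, at an unadjusted p under 0.05, smallest adjusted p 0.9997). The test of whether the difference between the drugs itself differed between KO and WT called 0 genes as well (535, or 2.71%, at an unadjusted p under 0.05, smallest adjusted p 0.988). Across genes, which are not independent replicates, WT and KO differences correlated at 0.052, and 49.5% of genes had the same sign in both. KO Topo 1 stood apart from the other 4 arrays of the KO contrast, with Ptprc at 8.43, so KO values below are also given without it where they turn or move by more than 1.5-fold.

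The genes that depend on Aire lay lower with Topo than with Etopo. Aire-induced genes are here the 640 genes (3.24%) lower in KO DMSO than in WT DMSO at an adjusted p under 0.05 and by at least 2-fold, a rule that uses the Topo and Etopo arrays only for the estimate of spread. Aire itself read 12.91 in KO DMSO and 12.31 in WT DMSO (group means of log2 intensity), so its probe does not check the genotype label. Of the 640 genes, 502 (78.4%) lay below 0 in the contrast of the drugs, against 41.1% of all genes. Their median difference was -0.19, against 0.033 for all genes. At an unadjusted limma p under 0.05, 145 (22.7%) were lower and 12 (1.88%) higher, against 2.28% and 2.17% of all genes. For 167 (26.1%) all Topo arrays lay below all Etopo arrays, against 5.34% of all genes. Of the 640, 1 gene, Ppp1r17, passed the adjusted threshold.

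The mean log2 level of the Aire-induced genes was 8.54, 8.43 and 8.32 in WT Etopo and 8.19, 8.32 and 8.21 in WT Topo, with WT DMSO at 8.68, 8.61 and 8.54. WT Etopo 3 and WT Topo 2, both at 8.32, brought the groups to the point of touching. In KO, where most of this expression is missing, Etopo read 7.04 and 6.95 and Topo 7.17, 6.97 and 7.01. The median difference there was 0.023, and -0.033 without KO Topo 1. The list was chosen for high values on the WT DMSO arrays, so its level against DMSO is not read here.

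The difference between the drugs was wider in genes that depend more on Aire. In the 484 genes that were 2 to 4-fold lower in KO DMSO the median difference was -0.15 and 74.4% lay below 0. It was -0.36 in the 109 genes of 4 to 8-fold (88.1% below 0) and -0.46 in the 47 genes beyond 8-fold (97.9% below 0). The corresponding medians in KO were 0.022, 0.014 and 0.096, and without KO Topo 1 they were -0.032, -0.056 and -0.0255. These bins are descriptions, and the trend across them was not tested. Genes were also split into 5 equal bins of mean level, averaged over all arrays, those of KO mice and of Topo included. Other genes had a median of 0.089 in the lowest bin and -0.0025 in the highest. Aire-induced genes had -0.30 in the lowest and -0.012 in the highest. Under DMSO the Aire-induced genes averaged 8.61 with Aire and 6.90 without it. Their bin thus depends in part on their dependence on Aire and on the Topo values themselves. For them the split cannot set level apart from dependence on Aire. The part of level in the result was not tested beyond this split.

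**Figure D2:**
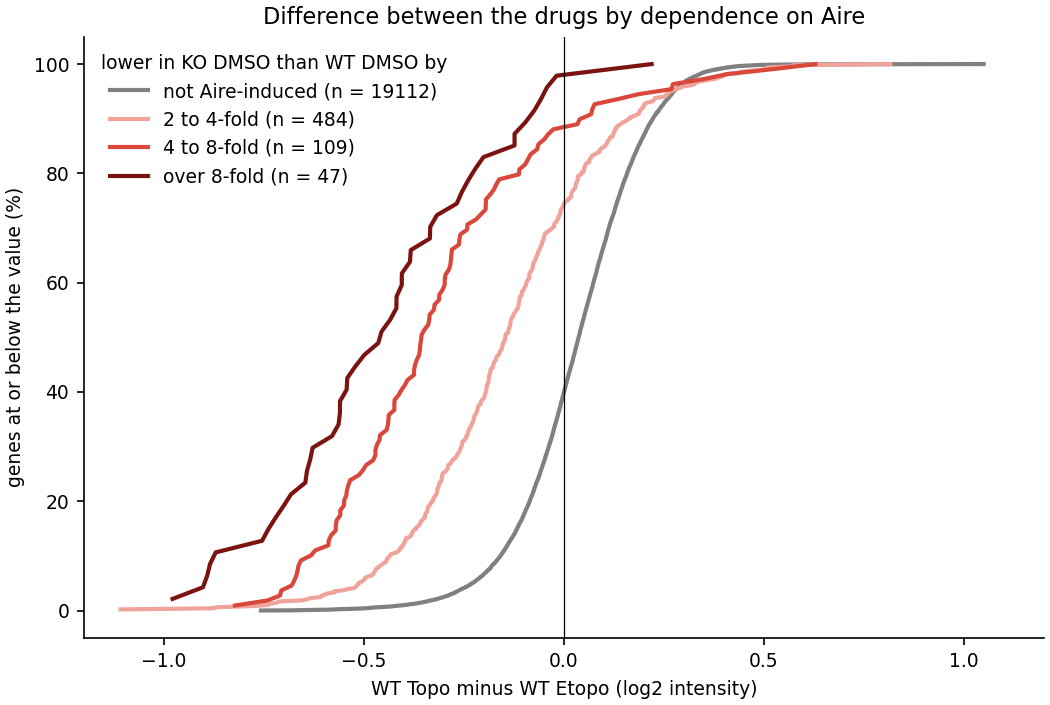
Each curve gives the share of genes (y axis, percent) at or below a given Topo minus Etopo difference in WT (x axis, log2 intensity), for genes that are not Aire-induced and for Aire-induced genes by how much lower they were in KO DMSO. The curves lie further to the left with each step of dependence on Aire, with medians of -0.15, -0.36 and -0.46 for the 3 bins.

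Among the Aire-induced genes with separated groups and an unadjusted p under 0.05, the largest differences after Ppp1r17 were those of Csn1s1, Psg27, Gatm and Amtn. Csn1s1, a milk casein, read 9.25, 9.30 and 9.14 with Etopo and 7.91, 8.54 and 8.30 with Topo, a difference of -0.98 (SE 0.27, adjusted p = 0.998). Psg27, a pregnancy-specific glycoprotein of the placenta, read 9.33, 8.92 and 9.22 with Etopo and 7.98, 8.61 and 8.17 with Topo, a difference of -0.90 (SE 0.20, adjusted p = 0.629). The groups did not overlap for either gene, but neither passed the adjusted threshold. Gatm, the first enzyme of creatine synthesis, read 10.83, 10.67 and 10.37 with Etopo and 9.62, 9.84 and 9.74 with Topo, a difference of -0.89 (SE 0.21, adjusted p = 0.629). Amtn, the enamel protein amelotin, read 9.86, 9.74 and 9.62 with Etopo and 8.44, 9.21 and 8.96 with Topo, a difference of -0.87 (SE 0.23, adjusted p = 0.925). These 2 genes were likewise separated between the groups without passing the test.

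Under DMSO, Gatm averaged 11.13 and Amtn 10.18, and the Etopo means of 10.62 and 9.74 lay between those and the Topo means of 9.73 and 8.87. Csn1s1 and Psg27 averaged 9.26 and 9.31 under DMSO, close to their Etopo means of 9.23 and 9.16. High DMSO values were part of the rule that chose these genes. In KO the Topo minus Etopo difference was 0.91 for Csn1s1 (SE 0.31), 0.37 for Psg27 (SE 0.22), 0.10 for Gatm (SE 0.23) and 0.19 for Amtn (SE 0.26), none of which passed the adjusted threshold. Without KO Topo 1 these differences were 0.50, 0.16, -0.20 and -0.0255.

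**Figure D3:**
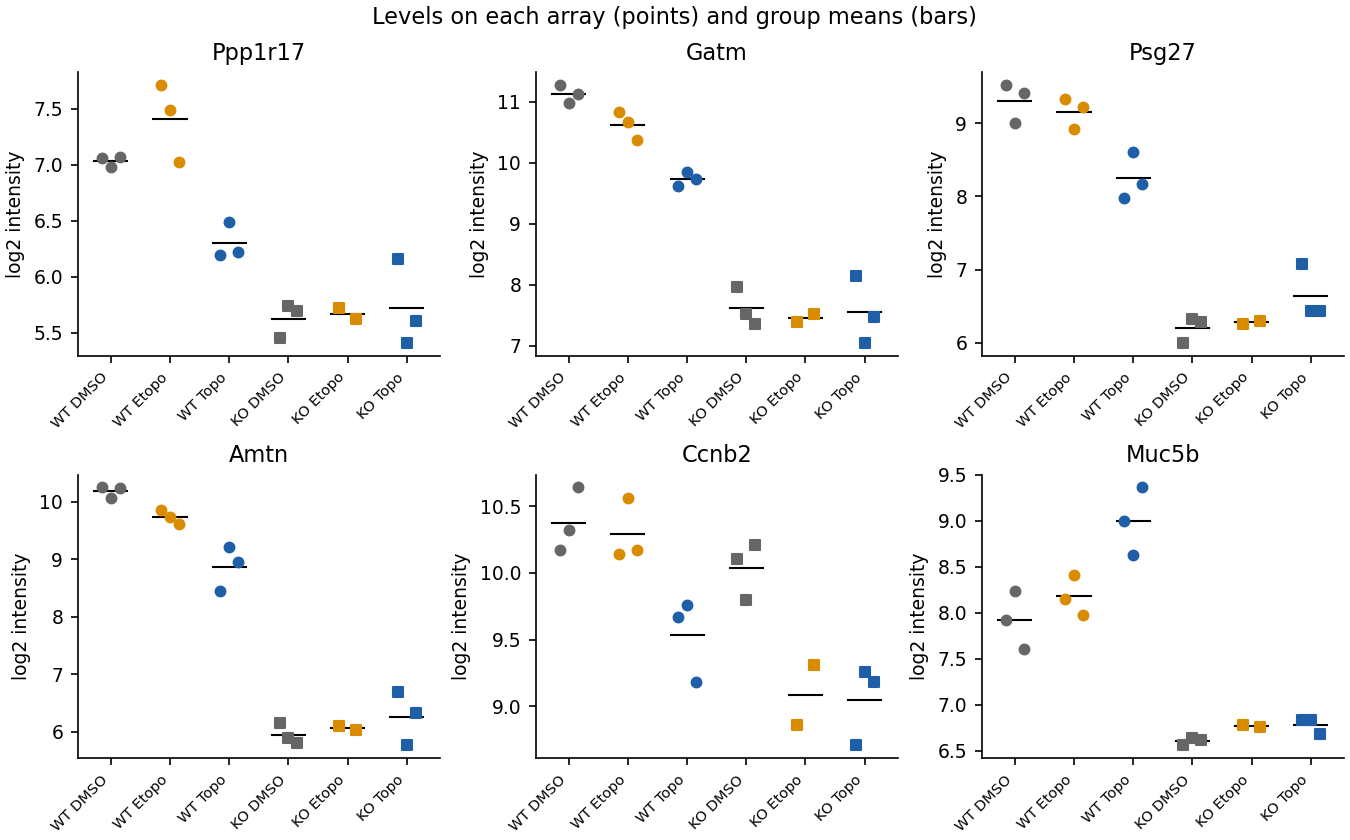
Log2 intensity (y axis) on each array is shown as points by group (circles WT, squares KO, bar at the group mean) for 6 genes. In WT, Ppp1r17, Gatm, Psg27, Amtn and Ccnb2 lie lower on all 3 Topo arrays than on all 3 Etopo arrays and Muc5b lies higher.

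Retnlb, a resistin-like protein of gut goblet cells (-0.82), Atp6v0d2, a proton pump subunit of osteoclasts (-0.77), Sh2d1b2, an adaptor of natural killer cells (-0.74), and Sbp, the spermine-binding protein of the prostate (-0.74), completed the Aire-induced genes among the 10 lowest that were separated at an unadjusted p under 0.05, and none passed the adjusted threshold. Of those 10, taken after predicted, clone-named and small RNA genes were set aside, 9 were Aire-induced, as are 3.24% of all genes. Among all 450 genes lower at an unadjusted limma p under 0.05, 145 were Aire-induced. Among all 1055 genes separated lower, 167 were. The other of the 10 was the cyclin gene Ccnb2, described below. Tslp, an epithelial cytokine, differed by -0.88 with overlapping groups, and Il1a, which encodes interleukin 1 alpha, by -0.86 (SE 0.50) with separated groups but an unadjusted limma p of 0.0967. Pgc, the stomach protease precursor pepsinogen C, read 9.86, 9.70 and 10.32 with Etopo and 9.20, 9.29 and 9.29 with Topo, a difference of -0.70 (SE 0.16, adjusted p = 0.629).

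Because Psg27 ranked so high, its relatives were examined after the values were seen. All 6 Aire-induced Psg genes lay below 0, with a median of -0.65, and 5 had separated groups. Of all Aire-induced genes, 78.4% lay below 0 and 26.1% were separated lower, against 41.1% and 5.34% of all genes. Differences were -0.30 for Psg17, -0.54 for Psg18, -0.58 for Psg22, -0.72 for Psg23 and -0.71 for Psg28. Psg genes are near-identical copies, so their probes may share signal and they do not count as independent genes.

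Aire-dependent antigens known by name were described as a list of their own, but 42 of its 64 measured genes are Aire-induced, so it is no independent view. Of the 64 genes 45 lay below 0, with a median of -0.19 (-0.12 without WT Etopo 1). There were 17 separated lower and 5 separated higher, where 5.34% and 11.8% of all genes were. Mcpt1, a mast cell protease, was -0.74. Aire-repressed genes (136, or 0.689%, higher in KO DMSO by the same rule) had a median of -0.079, or -0.0445 without WT Topo 1, -0.13 without WT Etopo 3 and -0.14 without WT Topo 2. They leaned lower too, with 69.1% below 0 against 41.1% of all genes. Separated genes made up 12.5% lower and 1.47% higher, and the KO median was -0.062. Epyc, a cartilage proteoglycan, was at -0.66 (SE 0.23) and Adam19, a metalloprotease, at -0.44 (SE 0.17), both separated. Fezf2-dependent and Aire-independent antigens (24 genes) had a median of 0.049. The largest difference among them was that of Calb2, a calcium-binding protein, at -0.72. Calb2 is also Aire-induced, and so is Krt10, another member. Under DMSO this list averaged 9.41 with Aire and 8.87 without it. Its name therefore does not hold for the list as a whole on these arrays. Its median is no contrast with genes that do not need Aire. Aire read 12.30, 12.22 and 12.04 with Etopo and 11.71, 11.63 and 12.02 with Topo. Its groups did not overlap, and the difference of -0.40 (SE 0.25, adjusted p = 0.998) did not pass the test.

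Muc5b, the main gel-forming mucin of the airways, had the largest difference in the other direction among separated genes. It read 8.15, 8.41 and 7.97 with Etopo and 8.99, 8.62 and 9.36 with Topo, a difference of 0.82 (SE 0.20, adjusted p = 0.723). Muc5b is Aire-induced, and so is Ugt2b34, a glucuronosyltransferase of the liver, at 0.63. Among all 428 genes higher at an unadjusted limma p under 0.05, 12 are Aire-induced. Of the 10 highest separated genes, the 8 besides Muc5b and Ugt2b34 are not on that list. They were Olfr767 and Vmn2r93, an odorant and a pheromone receptor (0.73 and 0.68), Sntn, a protein of ciliary tips (0.69), Lratd1 (0.66), Psapl1, a prosaposin-like protein (0.65), Serpinb11, a serpin (0.60), St8sia6, a sialyltransferase (0.60), and Fam216b (0.58). None of the 10 passed the adjusted threshold. Vmn2r93, Sntn and Fam216b were dim, at 5.56 to 5.84, 6.29 to 6.70 and 6.34 to 6.56 with Etopo. In the lowest of the 5 level bins (up to 6.65), genes that are not Aire-induced leaned higher too. Their median was 0.089, with 26.6% below 0. The part of level in the 10 differences was not tested.

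Genes of cell division had the lowest median of any list. The mitosis list holds cyclins, kinesins and kinases that build and run the spindle, and 65 of its 68 genes were measured. Of these, 64 lay below 0, with a median of -0.37 and a lowest value of -0.75, and 46 (70.8%) separated lower against 5.34% of all genes. At an unadjusted limma p under 0.05, 35 (53.8%) were lower and 0 higher, against 2.28% and 2.17% of all genes. By limma 0 passed the adjusted threshold. The list mean was 8.06, 8.10 and 8.07 in WT Etopo and 7.54, 7.81 and 7.73 in WT Topo, with WT DMSO at 8.28, 8.11 and 8.17. All Topo arrays lay below all Etopo arrays, and WT Topo 1 was lowest.

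In KO, both drugs gave low mitosis means, 7.48 and 7.63 with Etopo and 7.30, 7.60 and 7.66 with Topo, against 8.24, 7.95 and 8.28 with DMSO. The median difference there was -0.015, and 0.064 without KO Topo 1. Whether the list's difference between the drugs itself differs between genotypes was not tested. In sorted cells, fewer dividing cells and less RNA per dividing cell cannot be told apart.

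Ccnb2, a B-type cyclin that drives entry into mitosis, read 10.14, 10.56 and 10.17 with Etopo and 9.67, 9.76 and 9.18 with Topo, a difference of -0.75 (SE 0.22). Nusap1, which bundles spindle microtubules, read 8.72, 9.09 and 9.02 with Etopo and 7.77, 8.47 and 8.38 with Topo, a difference of -0.74 (SE 0.20). Kif11, the kinesin that separates the spindle poles, read 8.90, 9.23 and 9.32 with Etopo and 7.95, 8.75 and 8.67 with Topo, a difference of -0.69 (SE 0.24). The groups were separated for all 3 genes, each at an adjusted p of 0.998. Plk1, a mitotic kinase, differed by -0.66 (SE 0.32), Ccna2, cyclin A2, by -0.66 (SE 0.26) and Bora, an activator of mitotic kinases, by -0.64 (SE 0.17). In KO the same genes differed by -0.27 to 0.10, and by 0.058 to 0.35 without KO Topo 1.

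Many promoters of mitotic genes carry a cell cycle homology region (CHR), bound by the DREAM complex and its relatives, together with CCAAT boxes, bound by NF-Y. The mitosis promoters were looked up because these members lay lower together, and the 3 shown were chosen after their values were seen. They are RefSeq windows of build GRCm38.p6, from 250 bases before to 50 after the gene's start, 5' to 3' on the gene's strand, and capitals mark TTTGAA (CHR) and CCAAT on either strand, which read TTCAAA and ATTGG when on the opposite strand. Ccnb2 lies at chr9:70421505-70421804 on the minus strand, Kif11 at chr19:37376132-37376431 and Plk1 at chr7:122159185-122159484, both on the plus strand.
Ccnb2: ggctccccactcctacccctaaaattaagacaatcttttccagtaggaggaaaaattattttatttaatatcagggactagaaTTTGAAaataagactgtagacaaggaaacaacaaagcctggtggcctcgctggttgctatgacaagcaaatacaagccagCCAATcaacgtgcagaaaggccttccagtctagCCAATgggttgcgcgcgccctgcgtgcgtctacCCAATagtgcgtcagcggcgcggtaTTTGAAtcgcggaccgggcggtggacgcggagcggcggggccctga
Kif11: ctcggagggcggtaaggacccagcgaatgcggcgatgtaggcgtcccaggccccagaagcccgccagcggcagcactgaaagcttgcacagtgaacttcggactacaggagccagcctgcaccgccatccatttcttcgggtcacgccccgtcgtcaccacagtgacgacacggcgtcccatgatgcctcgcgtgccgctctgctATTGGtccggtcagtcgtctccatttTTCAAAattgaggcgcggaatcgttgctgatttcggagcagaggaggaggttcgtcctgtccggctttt
Plk1: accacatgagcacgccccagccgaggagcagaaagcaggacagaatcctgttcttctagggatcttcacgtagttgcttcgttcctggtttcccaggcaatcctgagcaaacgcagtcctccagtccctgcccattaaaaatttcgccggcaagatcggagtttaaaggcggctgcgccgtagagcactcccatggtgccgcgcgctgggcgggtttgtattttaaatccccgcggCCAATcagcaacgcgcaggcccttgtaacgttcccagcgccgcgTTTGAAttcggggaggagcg

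The Ccnb2 window holds 2 CHR and 3 CCAAT matches, and those of Kif11 and Plk1 hold 1 of each. The Nusap1 window holds no match to either, although its difference was as large. Promoters were found for 51 of the 65 mitosis genes (55 promoters), of which 72.7% held a CHR, 70.9% a CCAAT and 58.2% both. Of the 19019 promoters of array genes, 14.8% held a CHR, 37.4% a CCAAT and 5.83% both, and of all 32851 promoters 17.9%, 37.4% and 6.95%. Promoters of Aire-induced genes held a CHR in 18.7% and both in 8.32%. A match is a description of letters and not of a bound site.

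Other genes of the replicating cell lay lower by less. DNA replication and nucleotide supply (55 genes) had a median of -0.14, with 45 below 0, and DNA break signalling and repair (45 genes) -0.071. Among their largest differences were Dbf4, an activator of replication origins, at -0.53, Hells, a chromatin remodeller, at -0.51, and Mcm3, a subunit of the replicative helicase, at -0.47. H2ax, the histone phosphorylated at breaks, was at -0.40. Core histones (25 of 52 measured) had a median of -0.25, with H2ac8, an H2A gene, at -0.51 (SE 0.15) and separated. H2ac8 was dim, at 5.06 to 5.22 with Etopo and 4.58 to 4.67 with Topo. On the same arrays the Y-linked genes Eif2s3y, Uty and Kdm5d read 3.77 to 3.93, 4.46 to 5.07 and 5.15 to 5.58. The replication and histone medians leaned on WT Topo 1: without it they were -0.0475 and -0.069. Without WT Topo 3 they were -0.22 and -0.33, and the repair median was -0.12. WT Topo 1 had the narrowest spread of log2 values of the 6 arrays, 4.60 between percentiles 10 and 90 against 4.73 to 4.92, and the part of this in the result was not tested. Without that array the mitosis median was -0.29.

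Of the drug targets, none passed the adjusted threshold. Top1, the target of topotecan, read 9.31, 9.18 and 9.12 with Etopo and 9.31, 9.34 and 9.57 with Topo, a difference of 0.20 (SE 0.16) with groups that touched at 9.31. Top2a, the target of etoposide in dividing cells, read 9.31, 9.29 and 9.08 with Etopo and 8.10, 8.86 and 9.14 with Topo, a difference of -0.52 (SE 0.27) with overlapping groups. The Top2a difference was -0.22 without WT Topo 1, its lowest array. Top2b, the isoform that non-dividing cells also express, differed by 0.04 (SE 0.20, 95% interval -0.38 to 0.46). Tdp1, which removes topoisomerase I from DNA ends, read 10.02, 10.17 and 9.95 with Etopo and 9.36, 9.93 and 9.73 with Topo, a difference of -0.37 (SE 0.14, adjusted p = 0.998). Tdp1 was separated between the groups, and in KO it differed by -0.52. Tdp2, which removes topoisomerase II, differed by -0.044, Top1mt, the mitochondrial enzyme, by -0.11, and the type IA enzymes Top3a and Top3b by 0.00 and -0.05. None passed the test, and the list of 17 topoisomerase and cleavage-complex repair genes had a median of -0.021.

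Genes of tuft-like thymic epithelium, chemosensory cells that share bitter taste signalling, lay higher with Topo. Of 48 measured genes 45 lay above 0, with a median of 0.19, 11 separated higher (22.9% against 11.8% of all genes) and 0 lower. None passed the adjusted threshold by limma, and 4 (8.33% against 2.17% of all genes) were higher at an unadjusted p under 0.05. The list mean was 9.27, 9.32 and 9.46 with Etopo and 9.65, 9.45 and 9.49 with Topo, against 8.99, 8.93 and 9.09 with DMSO. WT Etopo 3 and WT Topo 2 overlapped. Without WT Topo 1 the median was 0.11 and without WT Etopo 1 it was 0.12.

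Rgs13, a regulator of G protein signalling, read 11.02, 11.28 and 10.93 with Etopo and 11.50, 11.71 and 11.48 with Topo, a difference of 0.49 (SE 0.19, adjusted p = 0.998). Gnat3, the taste G protein gustducin, differed by 0.42 (SE 0.22), Bmx, a Tec family kinase, by 0.41 and Adh1, an alcohol dehydrogenase, by 0.37, all with separated groups. Bitter taste receptors (34 Tas2r genes) had a median of 0.19 with 14.7% below 0, led by Tas2r110 (0.55), Tas2r108 (0.41) and Tas2r102 (0.38). As a list they were dim, with a mean level of 6.24. Other genes in the lowest of the 5 level bins (up to 6.65) also leaned higher, with a median of 0.089 and 26.6% below 0. The part of level in the Tas2r median was not tested. The tuft and Tas2r medians in KO were both 0.25, and the Tas2r median was 0.098 without KO Topo 1. Without WT Etopo 1 the Tas2r median was 0.085 and without WT Etopo 3 it was 0.28.

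**Figure D4:**
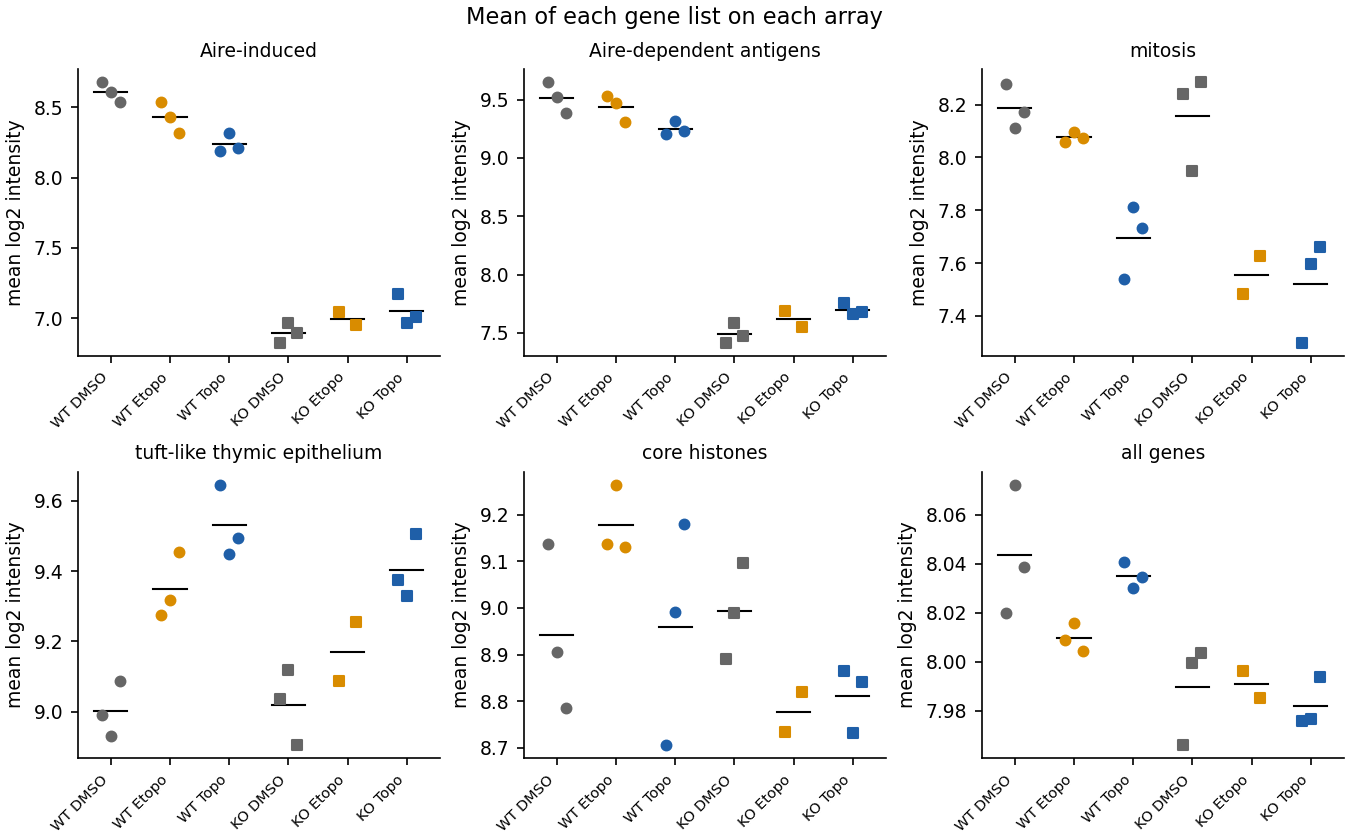
Mean log2 intensity (y axis) of the genes of 6 lists is shown for each array by group (circles WT, squares KO, bar at the group mean). The mitosis mean is lower on all 3 WT Topo arrays (7.54 to 7.81) than on all 3 WT Etopo arrays (8.06 to 8.10), and both KO drug groups lie at 7.30 to 7.66.

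Immediate early and stress genes (39) had a median of 0.17 in WT and 0.16 in KO (0.037 without KO Topo 1 and 0.018 without KO Etopo 1), but their single genes were spread widely within groups. Fosb, an AP-1 subunit, differed by 0.75 (SE 0.63) and Fos by 0.64 (SE 0.49), both with overlapping groups. Without WT Etopo 3, the array with the lowest list mean and the younger mouse, the median was 0.064, Fosb was 0.47 and Fos 0.28. With age as a covariate they were 0.048, 0.38 and 0.21. Targets of p53 (42 genes) had a median of 0.015 and 19 below 0. Tnfrsf10b, a death receptor, read 10.05, 9.85 and 10.29 with Etopo and 9.25, 9.53 and 9.69 with Topo, a difference of -0.57 (SE 0.15, adjusted p = 0.925), while Btg2, an antiproliferative p53 target, lay at 0.49 (SE 0.27). Interferon response genes (39) had a median of -0.018, NF-kB and cytokine response genes (34) 0.039, and Aire partner proteins (41) 0.0115. Leaving out 1 array turned the sign of the interferon (-0.0762 to 0.0371) and Aire partner (-0.062 to 0.0122) medians, and the NF-kB median went from 0.0092 to 0.0601.

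Markers of MEC stages differed little. Mature MEC genes (31) had a median of -0.0855 (-0.021 without WT Etopo 1, -0.0391 without WT Topo 3), with Cd40, a costimulatory receptor, at -0.29 (SE 0.12). Immature MEC genes (18) had a median of -0.074, and Ltf, lactoferrin, was their largest difference at 0.50 (SE 0.17). Post-Aire cornified MEC genes (34) had a median of 0.080 in WT and 0.35 in KO, and the WT medians of keratins (35) and cortical thymic epithelium genes (20) were 0.040 and 0.056. The largest difference of the cornified list was that of Klk10, a kallikrein protease, at -0.41, and Klk5, another, was at -0.36. Klk10 had groups that touched at 8.75. Leaving out 1 array gave -0.55 to -0.16 for Klk10 and -0.50 to -0.15 for Klk5. Krt10, a keratin of cornifying cells, differed by 0.40, Krt16 by 0.46 and Krt33a, a hair keratin, by -0.31. Of these genes, Krt10, Krt33a, Klk10 and Klk5 are Aire-induced.

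Markers of other cell types did not separate the groups as lists, except those of B cells. The thymocyte list (24 genes) had a median of 0.065 and its mean ranged from 7.23 to 7.31 with Etopo and from 7.21 to 7.32 with Topo. The macrophage and dendritic cell list (28) had a median of 0.00 and ranges of 8.33 to 8.50 and 8.37 to 8.40, and the stroma and endothelium list (25) -0.014 and ranges of 8.29 to 8.37 and 8.27 to 8.31. The B cell list (15 genes) had a median of -0.11, with 12 below 0, and ranged from 8.42 to 8.43 with Etopo and from 8.22 to 8.34 with Topo. Fcer2a, a low-affinity IgE receptor, was its largest difference at -0.48 (SE 0.19). The defining gene Cd79a is Aire-induced on these arrays and was dim, between 6.40 and 6.82. Adgre1, the macrophage marker F4/80, is itself Aire-induced and lay at -0.51 (SE 0.20). The part of these cell types in the results above was not tested. Basement membrane and matrix genes (30) had a median of -0.039, and Nid1, a basement membrane protein that is Aire-induced, differed by -0.56 (SE 0.13, adjusted p = 0.629) with separated groups.

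**Figure D5:**
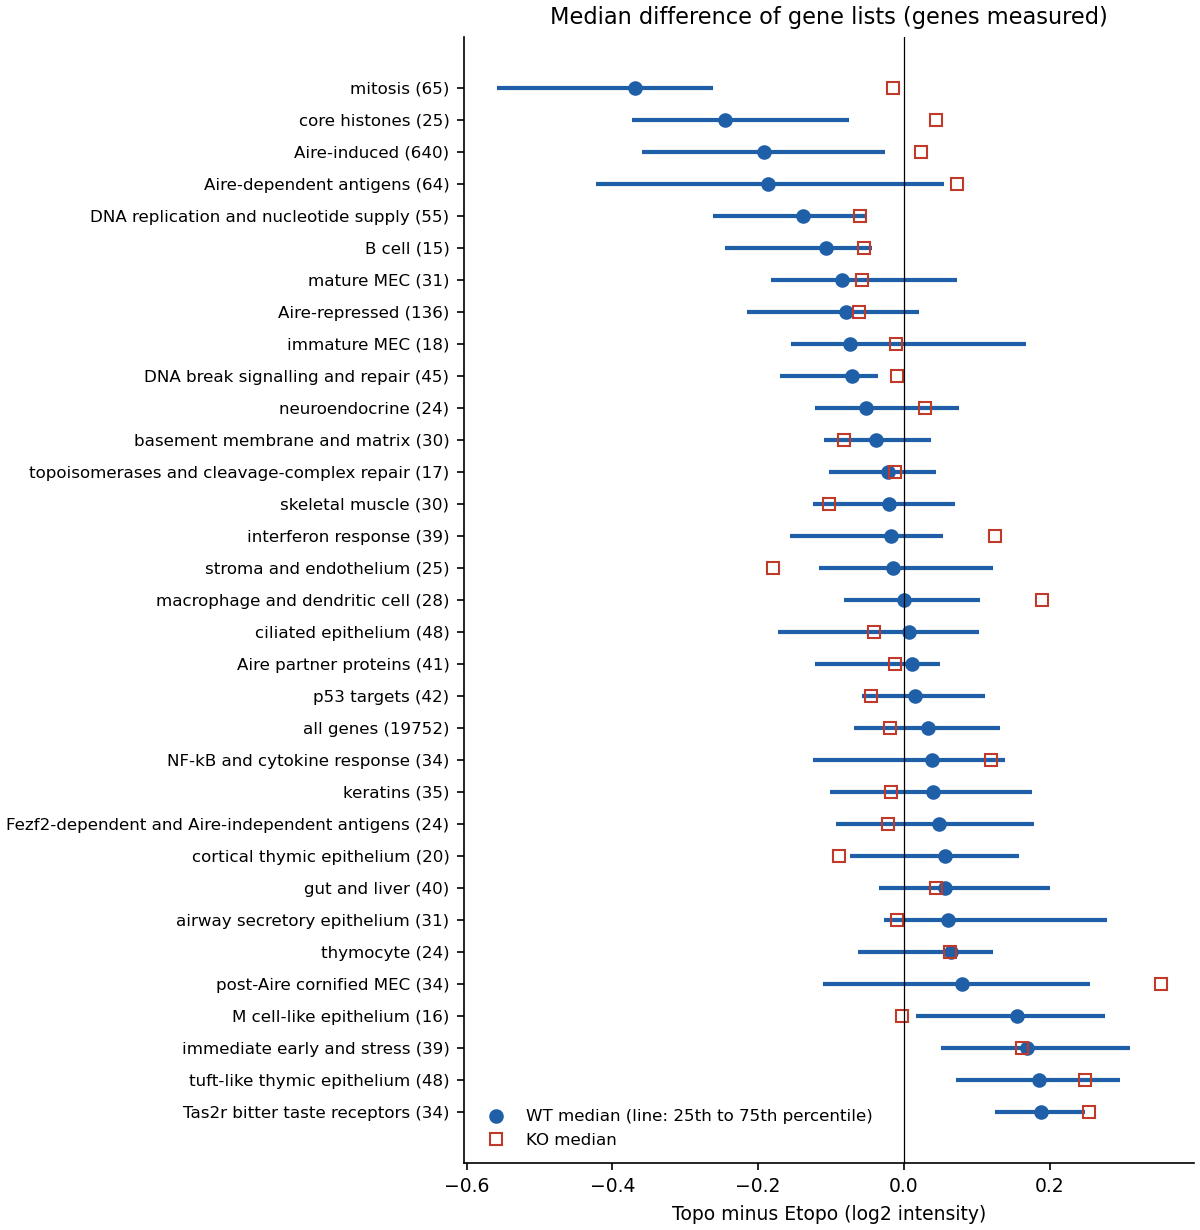
The median Topo minus Etopo difference (x axis, log2 intensity) of each gene list (y axis, number of genes measured) is shown for WT (filled circles, with a line over the middle of the genes, percentiles 25 to 75) and KO (open squares). In WT, mitosis is farthest below 0 at -0.37, and Tas2r receptors and tuft-like genes are farthest above 0 at 0.19.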

How the data were processed

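Expression was measured on 22 Affymetrix ST1.0 arrays. The authors deposited linear intensity values per probe, and the submitters' processing notes name RMA and Affymetrix Power Tools without versions; the annotation behind them is not given in the sources used here. Here log2 was taken with no pseudocount and no further normalization. Of 24922 probes, 21425 carried 1 symbol, 1399 several and 2098 none, and the last 2 kinds were left out. The probe with the highest mean was kept per symbol, giving 19752 genes. Groups came from the titles. Differences were fitted in R 4.3.3 with limma 3.58.1 (lmFit and eBayes, 1 mean per group, all 22 arrays, 14 residual and 7.22 prior degrees of freedom) and adjusted by Benjamini-Hochberg over all genes, with calls at an adjusted p under 0.05. The code was tested on simulated data.

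Members and lists were chosen with earlier results of these data known. Of 919 members asked for in 24 lists, 840 were measured, matched by symbol or a unique RefSeq synonym. A further 6 lists (189 of 197 genes) were added after seeing the data. Lists are described by counts and medians, without a test. The rule for genes that could be named was, in either direction, called genes with separated groups, filled to 10 with the largest differences among separated genes at an unadjusted p under 0.05; the 6 members of each list with the largest absolute difference; the 8 of the Aire-induced and Aire-repressed genes; called genes of the KO contrast and the interaction (there were none); and Aire and the topoisomerase genes. Predicted, clone-named and small RNA genes were named only where stated. "Separated" means that the value ranges of both groups did not overlap. Alternatives were the arrays in the fit, the replicate number as a block, quantile normalization, a filter on dim genes, an offset, the probe rule, the eBayes options, age as a covariate, the fold that defines Aire-induced genes, and leaving out each array.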

Additional observations from a re-analysis of the deposited data

How the results depend on the processing

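The count of genes called between WT Topo and WT Etopo was 0 with the 6 arrays alone, without genes in the lowest 30% of mean level (which removes Ppp1r17) and, chosen after seeing the data, without the arrays of both drugs. Leaving out 1 array gave 0 to 2. Same-numbered arrays correlated at -0.136 to 0.031 in their deviations, and differently numbered arrays at -0.2514 to 0.271. With 3 arrays per group this cannot settle whether the numbers pair the arrays. With the replicate block the count was 0 over 22 arrays and 66 over the 6 arrays, where 2 residual degrees of freedom remained. The Aire-induced median was -0.0636 for a list defined at 1.5-fold and -0.37 at 4-fold. It was -0.20 without WT DMSO 1, KO DMSO 1, KO Topo 1 and KO EtopoTopo 1, which was added after seeing the data and took the KO median from 0.023 to -0.0329. With age as a covariate the medians were -0.0443 for thymocyte, 0.0276 for stroma and endothelium and -0.0459 for NF-kB genes, and quantile normalization gave skeletal muscle -0.0545. Leaving out 1 array gave medians of 0.0027 to 0.1256 for Fezf2-dependent antigens, -0.0325 to 0.0665 for macrophage and dendritic cell, -0.002 to 0.1547 for keratins, -0.1492 to -0.007 for immature MEC, -0.0881 to -0.0087 for basement membrane, -0.1637 to -0.076 for B cell, -0.0197 to 0.0477 for stroma and endothelium, -0.0402 to 0.0103 for skeletal muscle, 0.041 to 0.1257 for cornified MEC, -0.0629 to 0.0213 for topoisomerases, 0.0023 to 0.045 for p53 targets, -0.0371 to 0.0398 for ciliated epithelium and 0.0149 to 0.0977 for gut and liver genes. Of 85 named genes followed, 81 kept their sign in every setting. The others were Top3a (-0.0213 with quantile normalization, -0.0376 to 0.0573 leaving out 1 array), Top3b (0.0464 with age, -0.1321 to 0.064), Top2b (-0.0633 to 0.1483) and Tdp2 (-0.1383 to 0.0606). The KO contrast and the interaction kept 0 calls in each setting run. Arrays give no depth, and 3 per group limits precision: the median 95% half-width was 0.31.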

Other observations

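Gene lists of the epithelial mimetic programmes that MECs can adopt were added after the data were seen. M cell-like epithelium (16 genes) had a median Topo minus Etopo difference of 0.16 in WT and -0.003 in KO (-0.11 to 0.073 leaving out 1 KO array). Ccl6, a chemokine, read 9.82, 9.97 and 9.65 with Etopo and 10.46, 10.28 and 10.42 with Topo, a difference of 0.57 (SE 0.19, adjusted p = 0.998). Its groups were separated. Gp2, the uptake receptor of M cells, differed by 0.51 (SE 0.23) with overlapping groups, and Ccl20, a chemokine that draws lymphocytes to follicle epithelium, by 0.38 (SE 0.19). Ccl6 and Ccl20 are Aire-induced, although they lay higher with Topo.

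Airway secretory epithelium (31 genes) had a median of 0.060, with Muc5b and Agr2, a chaperone of mucin folding, at 0.82 and 0.52. Retnla, a resistin-like protein, went the other way, with 8.41, 8.03 and 7.89 on the Etopo arrays and 7.34, 7.68 and 7.63 on the Topo arrays, a difference of -0.56 (SE 0.19, adjusted p = 0.998) with separated groups. Gut and liver genes (40) had a median of 0.056, ciliated epithelium (48) 0.007, skeletal muscle (30) -0.021 and neuroendocrine genes (24) -0.052. Of the neuroendocrine genes, Sst, which encodes somatostatin, read 10.63, 10.70 and 11.03 with Etopo and 10.38, 10.11 and 10.25 with Topo, a difference of -0.54 (SE 0.22, adjusted p = 0.998). Alb, serum albumin, read 9.62, 9.55 and 9.58 with Etopo and 8.93, 8.96 and 8.89 with Topo, a difference of -0.66 (SE 0.20, adjusted p = 0.998). Both genes are Aire-induced and had separated groups. No gene of these lists passed the adjusted threshold by limma.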
